A study of Rattus norvegicus with 6 samples.

Results

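Mitochondrial ribosomal protein genes encode the proteins of the ribosome inside mitochondria, and they are described here in neuronal progenitor cells, which divide and give rise to neurons and glia, after corticosterone treatment. The members were all probe sets of the array whose single gene symbol in the platform annotation starts with Mrpl (large subunit) or Mrps (small subunit) followed by a number. This gave 97 probe sets for 73 of the 14217 genes named on the array, 46 of the large and 27 of the small subunit. The cells came from the cerebral cortex of rat embryos at day E15.5 and grew on fibronectin with the mitogen bFGF (basic fibroblast growth factor) at 20 ng/ml in both groups. For 48 h one group was given corticosterone, the chief glucocorticoid hormone in rats, at 1 µM, and the other the vehicle dimethyl sulfoxide (DMSO). Each group held 3 samples, 1 array each, which form 3 couples of a vehicle and a corticosterone sample. The comparison asks how transcript levels differ with the hormone. The labels do not state the strain or sex, or whether the couples were separate cultures, so p-values measure only the spread between these samples, which may be technical. These are bulk cultures, in which fewer cells of a type and less RNA per cell cannot be told apart.

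The mitochondrial ribosome translates the few messages of the mitochondrial genome, all of which encode subunits of the respiratory chain and the ATP synthase. Its ribosomal RNAs come from mitochondrial DNA, while all of its proteins are encoded in the nucleus, made in the cytosol and imported. Some of these proteins descend from those of bacterial ribosomes and others are found only in mitochondria. The small subunit reads the message and the large subunit joins the amino acids. Nuclear genes for mitochondrial proteins are known targets of NRF1 (nuclear respiratory factor), of the ETS factor GABP, of YY1 and of MYC.

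Progenitor markers gave signal in these cultures, and so did markers of other cells. All 12 neural progenitor markers on the array lay above the background signal of 22.8 on every vehicle array, and their summed signal ran from 71048 to 86804 with vehicle and from 82874 to 92210.2 with corticosterone. Within this sum Slc1a3 rose from a mean of 13306 to 18561 and Nes from 2827 to 3385, the 2 progenitor markers called. Vim had 25055 and 27455.5, Fabp7 22147 and 22155, and Sox2 8699 and 8833, and none of these was called. Among the markers of other cells, 13 of 13 neuronal, 5 of 8 astrocyte, 7 of 9 oligodendrocyte, 3 of 11 meningeal, pericyte and fibroblast, 2 of 6 endothelial and 4 of 8 microglial ones lay above background on every vehicle array. Of all probe sets 75.3% to 78.1% lay above it on a vehicle array, so passing it sets few genes apart. The sum of the astrocyte markers ran from 2057 to 2914 with vehicle and from 4558 to 5775 with corticosterone. That of the meningeal, pericyte and fibroblast markers ran from 422 to 1667 and from 592 to 2818, that of the neuronal markers from 15493 to 16801 and from 13256 to 16146, and that of the oligodendrocyte lineage from 21892 to 27242 and from 18615 to 25300.5. Within the astrocyte sum, Aldoc rose from a mean of 1052 to 3138 and S100b from 176 to 676, the 2 astrocyte markers called. Fgfr3 had 1032 and 934 (log2 fold change −0.14, limma adjusted p = 0.40) and Gfap 50.3 and 98.9 (0.58, adjusted p = 0.13). Aqp4, Aldh1l1, Slc1a2 and Gjb6 were too dim to be tested. Within the oligodendrocyte sum, Olig1 alone gave 15022 to 20513 per array. Pdgfra, a marker of oligodendrocyte precursors, fell by 1.64 on the log2 scale (limma adjusted p = 2.9e-05) and Cnp by 0.30 (adjusted p = 0.032). Olig1 (log2 fold change −0.09, adjusted p = 0.35), Olig2 (−0.38, adjusted p = 0.066) and Cspg4 (−0.22, adjusted p = 0.46) did not pass. Sox10, Mbp, Mog and Mag were too dim to be tested. The mean of Sox10 was lower with corticosterone, and those of Mbp, Mog and Mag were higher. In limma 2 of 12 tested progenitor, 2 of 4 astrocyte and 2 of 4 meningeal, pericyte and fibroblast markers rose. Among tested neuronal markers 1 of 10 fell, and among those of the oligodendrocyte lineage 2 of 5. Of all genes tested 11.7% were called higher and 7.77% lower. The part of these markers in the changes given here was not tested. The median signal of all probe sets was 108 to 122 on the vehicle arrays and 124 to 134 on the corticosterone arrays, and the small number of arrays sets how precise the values can be.

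Every one of the 73 genes was tested, and most were close to the same level in both groups. After corticosterone 4 genes fell (limma adjusted p under 0.05), 0 rose and 69 did not pass. Of all 9910 genes tested, 19.5% passed, 11.7% as higher and 7.77% as lower, so the members' share of 5.48% called in all lay under the share over all genes. The 4 that fell were Mrps33, Mrps27, Mrps18b and Mrps21, all of the small subunit. Without the couple as a replicate block 0 members passed, although limma gave 3 lower and 0 higher when p was not adjusted (under 0.05), and 3.00% of all genes passed. Centring each array on its median, which moves the median log2 fold change of all genes to −0.11 from −0.002, gave 18 members lower, 0 higher and 18.3% of all genes lower.

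The starts of these 4 genes are shown because they are the members that fell. Each sequence is RefSeq's (assembly GRCr8) and covers the 150 bases before the annotated start and the 30 bases after it, on the gene's own strand. Capitals mark motifs searched in it, on either strand, among the NRF1 palindrome, the NRF1 core (TGCGCA), the motif of ETS factors such as GABP (CCGGAAG), that of YY1 (AAGATGGC), the E-box bound by MYC and MAX (CACGTG) and the palindromic glucocorticoid receptor motif. Mrps18b lies at chr20:2842856-2843035 on the plus strand, Mrps27 at chr2:32474054-32474233 on the plus strand, Mrps21 at chr2:186103322-186103501 on the minus strand and Mrps33 at chr4:69566909-69567088 on the minus strand.
Mrps18b: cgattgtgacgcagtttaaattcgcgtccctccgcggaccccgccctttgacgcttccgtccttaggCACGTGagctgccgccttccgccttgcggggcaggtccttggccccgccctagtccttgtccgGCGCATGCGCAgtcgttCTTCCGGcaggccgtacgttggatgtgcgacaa
Mrps27: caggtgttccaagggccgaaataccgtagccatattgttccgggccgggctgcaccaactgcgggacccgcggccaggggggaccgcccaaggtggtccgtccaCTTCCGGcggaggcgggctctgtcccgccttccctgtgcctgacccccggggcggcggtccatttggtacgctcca
Mrps21: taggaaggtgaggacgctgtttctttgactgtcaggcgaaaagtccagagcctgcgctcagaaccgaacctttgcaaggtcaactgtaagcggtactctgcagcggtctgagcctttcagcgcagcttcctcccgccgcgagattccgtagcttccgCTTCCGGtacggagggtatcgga
Mrps33: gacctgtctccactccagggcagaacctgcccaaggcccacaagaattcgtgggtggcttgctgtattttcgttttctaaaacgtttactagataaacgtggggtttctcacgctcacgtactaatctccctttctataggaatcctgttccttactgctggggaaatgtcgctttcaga

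In the Mrps18b sequence the capitals show an E-box 83 bases before the start, the NRF1 palindrome and its overlapping core from 20 bases before it, and an ETS motif from 3 bases before it. Mrps27 and Mrps21 each hold an ETS motif, and the printed stretch of Mrps33 holds none of the 6 motifs. Counting the annotated start as base 1, a YY1 motif that begins at base 29 of Mrps18b and at base 30 of Mrps27 runs past the printed 3′ end and is not capitalised, and an NRF1 core at base 39 of Mrps33 lies beyond it. A second annotated start of Mrps21 had none of them either. Over the full windows, 250 bases before to 50 after the start, RefSeq's table held 61 windows for 59 of the 73 genes. In these the ETS motif stood in 20 (32.8%), against 8.75% of all 33469 windows in the table, and the YY1 motif in 14 (23.0%), against 3.17%. The NRF1 palindrome stood in 9 (14.8%, against 4.25%), its core in 16 (26.2%, against 7.24%) and the E-box in 6 (9.84%, against 6.42%). The glucocorticoid receptor motif stood in 0, and in 0.0149% of all windows. Large-subunit and small-subunit windows held the ETS motif in 13 of 39 and 7 of 22, and the YY1 motif in 8 of 39 and 6 of 22. Median GC content was 56% in the members' windows and 51.7% in all, the shares are not matched on it, and a match of letters is not a binding site.

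Mrps33 encodes a small-subunit protein with no counterpart in bacteria, and it showed the largest fall among the members. With vehicle its signal was 4443, 2807 and 3045 in couples 1, 2 and 3, and with corticosterone 2963, 1876 and 2343 in the same order, which is kept for all genes. It was lower in each couple, although the corticosterone array of couple 1 lay above the vehicle array of couple 2, so the groups overlap. The means were 3432 ± 884 and 2394 ± 545 (SD, n = 3 arrays). The log2 fold change was −0.51 ± 0.07 (SE; limma adjusted p = 6.0e-04), and signal plus pseudocount fell by 29.8%. Within couples the log2 difference was −0.58, −0.57 and −0.37. It passed without any 1 of the couples and without the intensity trend, but not when the couple was left out of the model (limma adjusted p = 0.26).

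Mrps27 encodes a pentatricopeptide repeat protein of the small subunit, of a family that binds RNA. Vehicle arrays gave 1080.2, 1304 and 1247, and corticosterone arrays 899, 963 and 1032. All vehicle arrays lay above all corticosterone arrays, by the least between vehicle in couple 1 and corticosterone in couple 3. The log2 fold change was −0.32 ± 0.08 (SE; limma adjusted p = 0.021), from means of 1211 ± 117 and 965 ± 66.6 (SD, n = 3 arrays). A pair of dimmer probe sets of Mrps27 had log2 fold changes of −0.09 and −0.17 and did not pass (limma adjusted p = 0.62 and 0.30). The call ended without couple 1 (0.052), without couple 2 (0.17), without the trend (0.099) and without the block (0.20).

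Mrps18b is 1 of 3 paralogs named after the bacterial small-subunit protein bS18. Vehicle arrays gave 2618, 2136 and 2025, and corticosterone arrays 2159, 1729 and 1767, lower in each couple and overlapping between the groups. The log2 fold change was −0.26 ± 0.07 (SE; limma adjusted p = 0.026). The paralog Mrps18c, the one thought to take the bacterial protein's place in the small subunit, had 1091, 587 and 920 with vehicle and 806, 585 and 577 with corticosterone. The gap in couple 2 was close to 0 and those in couples 1 and 3 were wide, so its log2 fold change of −0.36 ± 0.12 did not pass (adjusted p = 0.060). Its second probe set had −0.36 as well (adjusted p = 0.098), and another lay below the filter on low signals. Mrps18a, whose protein sits on the large subunit in structures of mammalian mitochondrial ribosomes, had 1770, 1539 and 1403 with vehicle and 1391, 1403 and 1399 with corticosterone. Its vehicle arrays lay above its corticosterone arrays by a gap close to 0, between vehicle in couple 3 and corticosterone in couple 2, with a log2 fold change of −0.16 (adjusted p = 0.23). The call of Mrps18b ended without couple 1 (0.11), couple 2 (0.17), the trend (0.14) or the block (0.38), and Mrps18c passed without couple 2 (0.028).

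Mrps21 encodes the counterpart of the bacterial small-subunit protein bS21. Vehicle arrays gave 3947, 3603 and 4573, and corticosterone arrays 3351, 3253 and 3675, again lower in each couple with overlap between the groups. The means were 4041 ± 492 and 3426 ± 221 (SD, n = 3 arrays), and the log2 fold change was −0.23 ± 0.06 (SE; limma adjusted p = 0.031). This was the call nearest to the threshold, and it ended without any 1 of the couples (0.084 to 0.14), without the block (0.33), without the trend (0.17), without the filter on low signals (0.068) and with quantile normalization (0.060). Among members that did not pass, Mrps2 was the next in adjusted p to Mrps18c: vehicle signals of 1346, 1453 and 1452 stood apart from corticosterone signals of 1198, 1213 and 1205 (log2 fold change −0.23, adjusted p = 0.062). Mrps2 encodes the counterpart of bacterial uS2, and its dimmer probe sets had log2 fold changes of 0.009 and 0.37 (adjusted p = 0.98 and 0.19).

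Mrps31 had the lowest log2 fold change among members that did not pass, −0.37 ± 0.14 (SE; limma adjusted p = 0.11). Vehicle arrays gave 1119, 987 and 755, and corticosterone arrays 605, 768 and 814. Couple 3 went the other way from couples 1 and 2, and without couple 3 the gene passed as lower (−0.60, adjusted p = 0.011). At the other end stood Mrps16, Mrps12 and Mrps15, counterparts of bacterial small-subunit proteins, of which that of Mrps12 lies at the decoding centre. Mrps16 had 1603, 1473 and 1704 with vehicle and 1966, 1662 and 1843 with corticosterone (log2 fold change 0.19 ± 0.07, adjusted p = 0.10). Mrps12 had 1918, 1891 and 1878 against 2178, 2146 and 2012, with no overlap (0.15 ± 0.07, adjusted p = 0.16). Mrps15 had 1168, 1168 and 1191 against 1301, 1320.4 and 1256, also with no overlap (0.13 ± 0.08, adjusted p = 0.27). Each of the 3 was higher in every couple, and none passed, though Mrps12 and Mrps16 had an unadjusted p under 0.05. A dim second probe set of Mrps15 had −0.09 (adjusted p = 0.82).

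**Figure D1:**
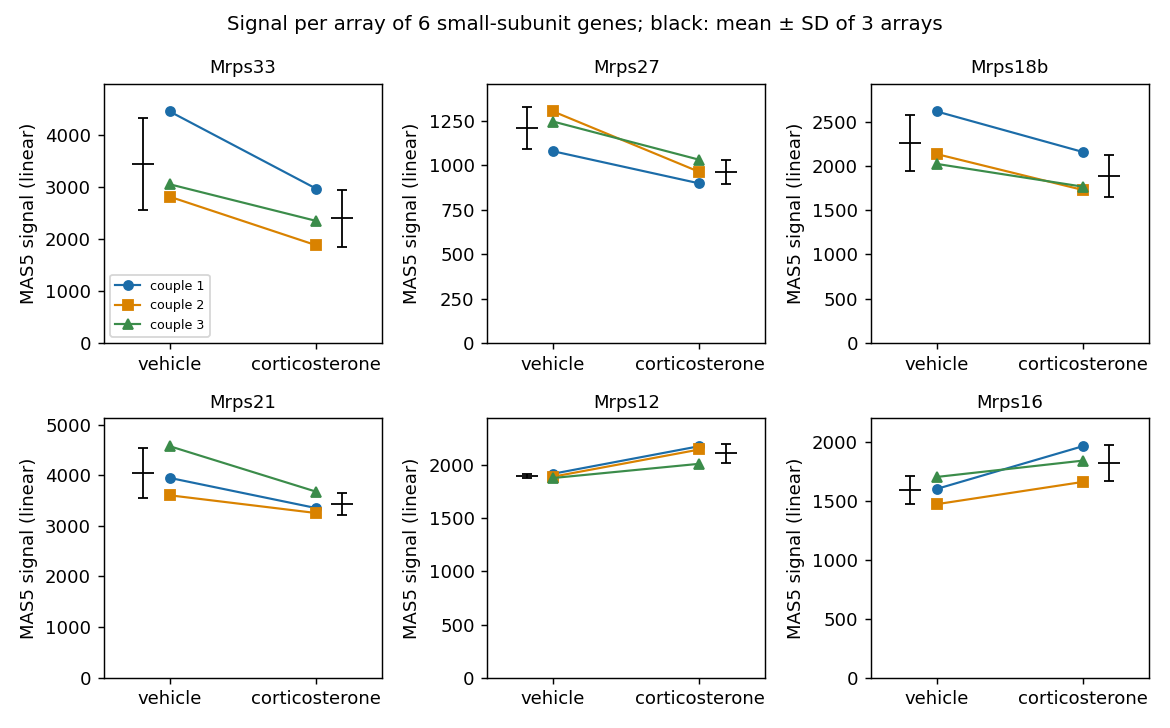
MAS5 signal per array (linear axis from 0) of 6 small-subunit genes, with a line joining the vehicle and the corticosterone array of each couple and black marks for the mean ± SD of 3 arrays. The lines of Mrps33, Mrps27, Mrps18b and Mrps21 fall in all 3 couples, and those of Mrps12 and Mrps16, which did not pass, rise in all 3.

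By limma's unadjusted p (under 0.05) 1641 of all 9910 genes tested were lower and 1862 higher. Of the 46 large-subunit genes 0 passed in limma, and 7 were lower and 0 higher by unadjusted p. The lowest log2 fold change among them was that of Mrpl3, at −0.20 ± 0.07 (SE; limma adjusted p = 0.069), from signals of 3763, 3608 and 3298 with vehicle and 3348, 2852 and 3074 with corticosterone. Mrpl3 was lower in each couple, with overlap between the groups. The highest was that of Mrpl4, at 0.13 ± 0.08 (adjusted p = 0.30), from 1119, 1258 and 1214 with vehicle and 1277, 1373 and 1275 with corticosterone. Mrpl4 was higher in each couple, with no overlap between the groups. Both genes encode counterparts of bacterial proteins, and like Mrpl28 below they were singled out after their values were seen. Without couple 3 Mrpl28 passed as lower, and median centring gave 10 large-subunit genes as lower.

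The 95% interval of the log2 fold change lay within a 1.5-fold change in either direction for all 46 large-subunit genes and for 24 of the 27 small-subunit genes, the exceptions being Mrps18c, Mrps31 and Mrps33. Over all genes tested 76.0% of the intervals did so. These are intervals of single genes, not adjusted for their number. The median SE of the log2 fold change was 0.075 for the members and 0.098 for all genes. The members ran from −0.51 to 0.19. The median absolute log2 fold change was 0.077 for the large subunit, 0.12 for the small subunit and 0.15 for all genes.

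**Figure D2:**
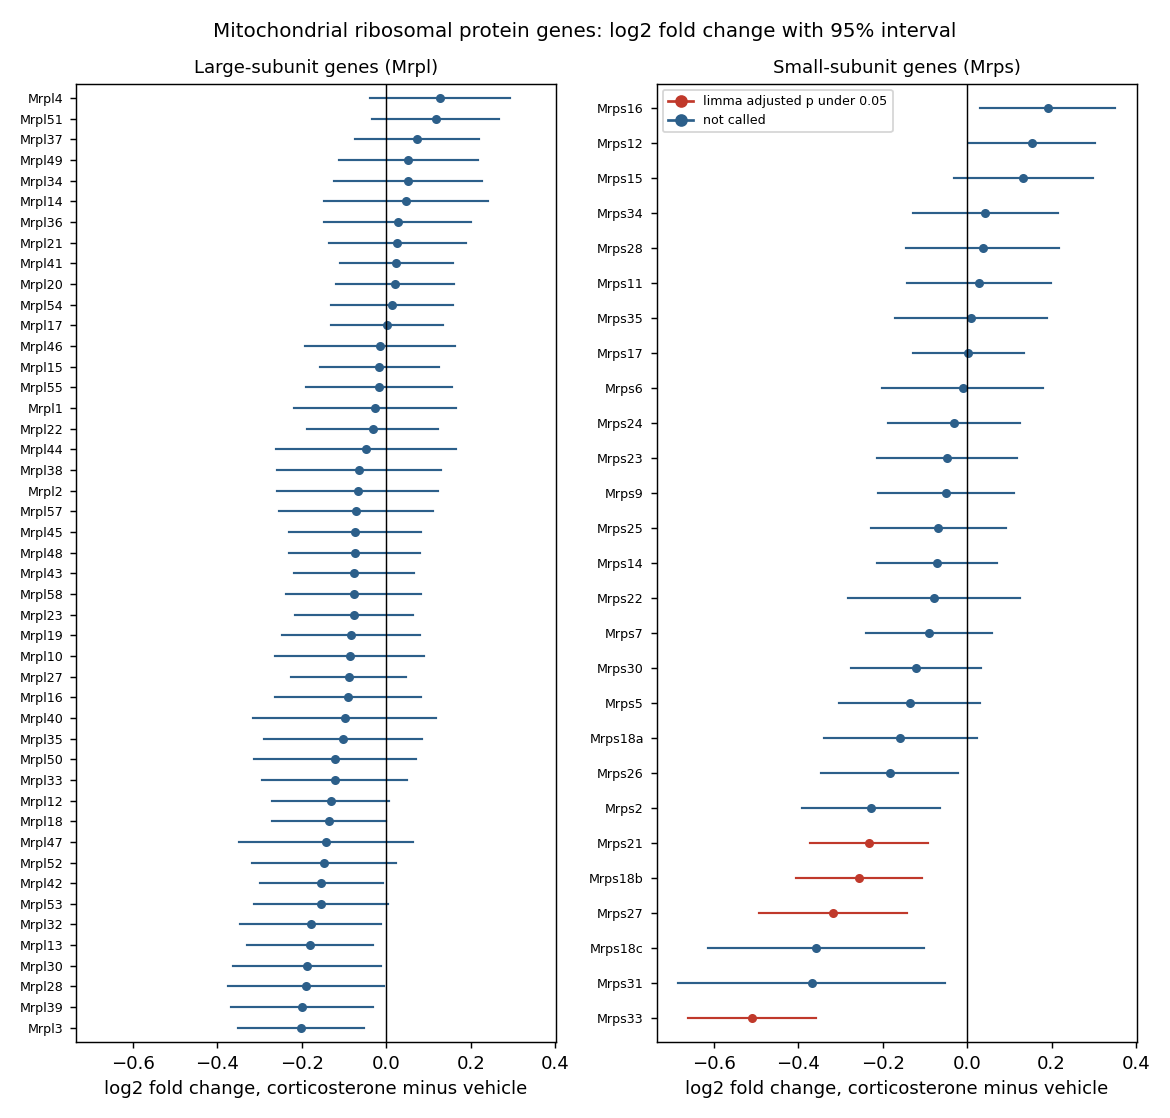
Log2 fold change (corticosterone minus vehicle, x axis) of each of the 73 genes with its 95% interval, large-subunit genes on the left and small-subunit genes on the right, red where limma's adjusted p is under 0.05. The values run from −0.20 to 0.13 in the large subunit and from −0.51 to 0.19 in the small subunit, where the 4 red genes lie.

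The middle of the distribution lay slightly below 0 in both subunits. The median log2 fold change was −0.076 for the large-subunit and −0.071 for the small-subunit genes, against −0.002 for all genes. A log2 fold change below 0 was found for 34 of 46 and 19 of 27 genes, against 50.3% of all genes. After median centring of the arrays the medians were −0.18 in both subunits and −0.11 over all genes. Centring adds one constant to every log2 fold change, so it cannot move the gap between the median of the members and that of all genes, which was −0.073. Quantile normalization, which can, gave a gap of −0.040. By couple, 40, 54 and 51 of the 73 genes were lower with corticosterone in couples 1, 2 and 3, against 48.9%, 49.6% and 51.3% of all genes. Couple 1 had the smallest excess, with a median of −0.031, where couples 2 and 3 had −0.078 and −0.070. In all 3 couples 26 members were lower and 7 higher, against 27.2% and 27.7% of all genes. The vehicle and corticosterone arrays did not overlap for 10 members, 7 lower and 3 higher with corticosterone, against 26.2% of all genes in either direction and 11.4% as lower.

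**Figure D3:**
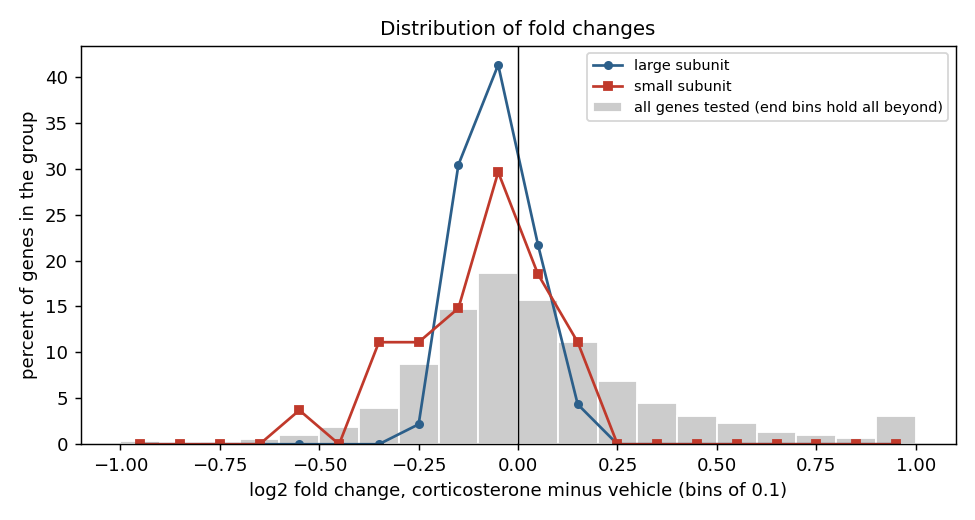
Percent of genes (y axis) per bin of 0.1 in log2 fold change (x axis), for all 9910 genes tested (grey bars, end bins holding all values beyond), 46 large-subunit genes (blue circles) and 27 small-subunit genes (red squares). Most members lie within 0.2 of 0, and of the members only small-subunit genes reach below −0.3.

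Symbols follow an older naming, and structures of mammalian mitochondrial ribosomes place the proteins of Mrps18a and Mrps30 on the large subunit. With both moved there, an assignment made after the values were seen, 0 of 48 large-subunit and 4 of 25 small-subunit genes passed, and the medians were −0.077 and −0.068. Of 42 members that take the place of a bacterial ribosomal protein 1 passed, Mrps21. Of 31 that do not, among them Mrps18a and Mrps18b, whose proteins sit elsewhere than bS18, 3 passed, Mrps33, Mrps27 and Mrps18b. The median log2 fold change was −0.069 and −0.076. Of all genes 7.77% were called lower, and without the couple as a block 0 members passed in any of these splits. The bacterial split was made from general knowledge of the ribosome, also after the values were seen, and carries no test.

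Several tested probe sets measured 16 of the 73 genes. In 10 of these all probe sets pointed one way, and in 6 they did not. Mrpl52 had −0.15 and 0.15, and Mrpl57 −0.07 and 0.27, with none past the threshold. Of 93 member probe sets tested 4 passed, all lower (4.30%), against 15.9% of all 18625 probe sets tested, 9.4% as higher and 6.45% as lower. The other 4 of the 97 lay below the filter, and in each case another probe set of the gene was tested.

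Signals of the probe sets that stand for the members ran from 403 to 5863 over all arrays, above background throughout. The brightest with vehicle were those of Mrpl17 (5554 ± 193, SD, n = 3 arrays), Mrpl33 (4780 ± 974) and Mrpl18 (4533 ± 413), and the dimmest those of Mrpl40 (655 ± 70.2), Mrpl1 (704 ± 48.0) and Mrpl38 (712 ± 261). Probes differ in how strongly they bind, so this ranks probe sets and not transcripts. None of these 6 passed. Mrpl17, at a log2 fold change of 0.002, was the closest of the 73 to 0, and it turned to −0.10 with median centring.

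Couple 1 stood apart from the other couples for many members. Both arrays of couple 1 were the highest of the 6 for 29 members (39.7%), against 12.1% of all genes. Both were the lowest for 7 (9.59%), against 13.4% of all genes. For couple 2 both arrays were the highest for 1 member (1.37%) and the lowest for 8 (10.96%), against 7.87% and 6.97% of all genes. For couple 3 both were the highest for 7 (9.59%) and the lowest for 10 (13.7%), against 7.59% and 5.43%. Mrpl38 showed the widest gap, with 411 and 403 on the vehicle and corticosterone arrays of couple 1, 847 and 797 in couple 2, and 877 and 828 in couple 3. Its treated and untreated arrays differed little within any couple (−0.06, limma adjusted p = 0.68). Mrpl43 was also low in couple 1, with 2352 and 2272 against 2902 to 3289 on the other arrays, while Mrps28 was high there, with 1275 and 1318 against 885 to 987. Actb probe sets at the 3′ and 5′ ends of the transcript, whose ratio reflects how intact the RNA is, gave 1.55 and 1.76 in couple 1 and 2.0 to 2.12 in the others. Its part in these gaps was not tested.

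Other genes of mitochondrial translation held 2 calls, both lower, against 7.77% of all genes called lower and 19.5% in either direction. By limma's unadjusted p (under 0.05) 1641 of all 9910 genes were lower and 1862 higher. The median SE of the log2 fold change was 0.11 for the translation factors and for the assembly genes and 0.14 for the synthetases, wider than the 0.075 of the members, and the difference from the members was not tested. Of 5 ribosomal proteins under other symbols 0 passed in limma (1 lower and 1 higher by unadjusted p), and Dap3, a small-subunit protein, had signals of 1563 ± 118 and 1511 ± 24.7 (−0.05, adjusted p = 0.75). Of 16 translation factors 0 passed in limma (1 lower and 0 higher by unadjusted p), and Tufm, the elongation factor that delivers aminoacyl-tRNA, had 2322 ± 102 and 2292 ± 80.1 (−0.02, adjusted p = 0.89). Of 28 genes of ribosome assembly and ribosomal RNA modification 1 fell, the GTPase gene Noa1, from 737, 588 and 684 to 481, 493 and 543 (−0.38, adjusted p = 0.026). Of 13 aminoacyl-tRNA synthetase genes 1 fell, the mitochondrial tyrosine enzyme Yars2, from 1096, 930.4 and 971 to 794, 723 and 889 (−0.31, adjusted p = 0.040). Both were lower in each couple with no overlap between the groups. Noa1 lost its call whichever couple was left out (0.051 to 0.20), and Yars2 lost it without couple 1 or without couple 2 (0.24 and 0.20).

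Of 20 genes of mitochondrial DNA maintenance, transcription and transcript handling 4 fell (20%), 0 rose and 16 did not pass, against 7.77% of all genes called lower. Polg, the catalytic subunit of the mitochondrial DNA polymerase, fell from 1944, 1356 and 1794 to 1250.1, 961 and 1194 (log2 fold change −0.56 ± 0.07, SE; limma adjusted p = 5.3e-04). Tfam, which packages mitochondrial DNA and starts its transcription, fell from 2602, 2054 and 1957 to 1774, 1463 and 1811 (−0.38, adjusted p = 0.014), and the transcription factor Tfb2m from 858, 580 and 718 to 510.3, 531 and 511 (−0.44, adjusted p = 0.027). Trmt10c, a subunit of the enzyme that trims the 5′ ends of mitochondrial tRNAs, had −0.31 (adjusted p = 0.048). Polg, Tfam and Tfb2m stood apart between the groups, and all 4 were lower in each couple. Polrmt, the mitochondrial RNA polymerase, had 231 ± 21.7 and 260 ± 29.5 (0.15, adjusted p = 0.52). Of these 4 genes Polg alone passed whichever couple was left out. Tfam did not pass without couple 1 or 2 (0.090 and 0.14), Tfb2m not without couple 1 or 3 (0.20 and 0.081), and Trmt10c not without any of them (0.078 to 0.20). A dimmer probe set of Polg had −0.04 (adjusted p = 0.91).

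The list of regulators of nuclear genes for mitochondrial proteins had the largest share called. Of its 14 tested genes 5 were lower and 1 higher, against 7.77% and 11.7% of all genes. The 14 also hold the mitochondrial protease genes Clpp and Lonp1, which are not such regulators and did not pass (limma adjusted p = 0.19 and 0.73). Myc, a growth-promoting transcription factor, fell from 2699, 2004 and 2176 to 1492, 939 and 1445 (log2 fold change −0.83, limma adjusted p = 1.6e-04). Its partner Max fell from 2824, 2994 and 2887 to 2029, 2274 and 2406 (−0.37, adjusted p = 0.0039), with −0.21 on a dimmer probe set (adjusted p = 0.24). For both, all vehicle arrays lay above all corticosterone arrays. Esrra, the estrogen-related receptor, fell from 394, 370.2 and 451 to 248, 284 and 296 (−0.51, adjusted p = 0.012). The coactivator Pprc1 fell from 1168, 998 and 1056 to 870.4, 643 and 783 (−0.48, adjusted p = 0.0031), and Gabpb1, a subunit of GABP, from 1501, 1330 and 1436 to 1125, 989 and 1262 (−0.34, adjusted p = 0.016). Yy1 (4246 ± 378 and 3947 ± 370, log2 fold change −0.10, adjusted p = 0.30) did not pass, with overlap between the groups. The DNA-binding subunit Gabpa (2078 ± 165 and 1709 ± 218; −0.28, adjusted p = 0.079) and Nrf1 (639 ± 25.7 and 533 ± 78.0; −0.26, adjusted p = 0.11) did not pass, although neither overlapped between the groups. A dimmer probe set of Nrf1 went the other way, by 0.15 (adjusted p = 0.62). The coactivator Ppargc1a rose from 229, 402 and 202 to 362, 456 and 350 (0.50, adjusted p = 0.026), higher in each couple. Max and Gabpb1 did not pass without couple 2 (0.051 and 0.14), nor Gabpb1 and Esrra without couple 1 (0.093 and 0.065), nor Ppargc1a without couple 1 or 3 (0.10 and 0.11). Without the couple as a block 0 of the 12 genes called in these lists passed, with adjusted p from 0.061 for Myc to 0.44 for Trmt10c.

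**Figure D4:**
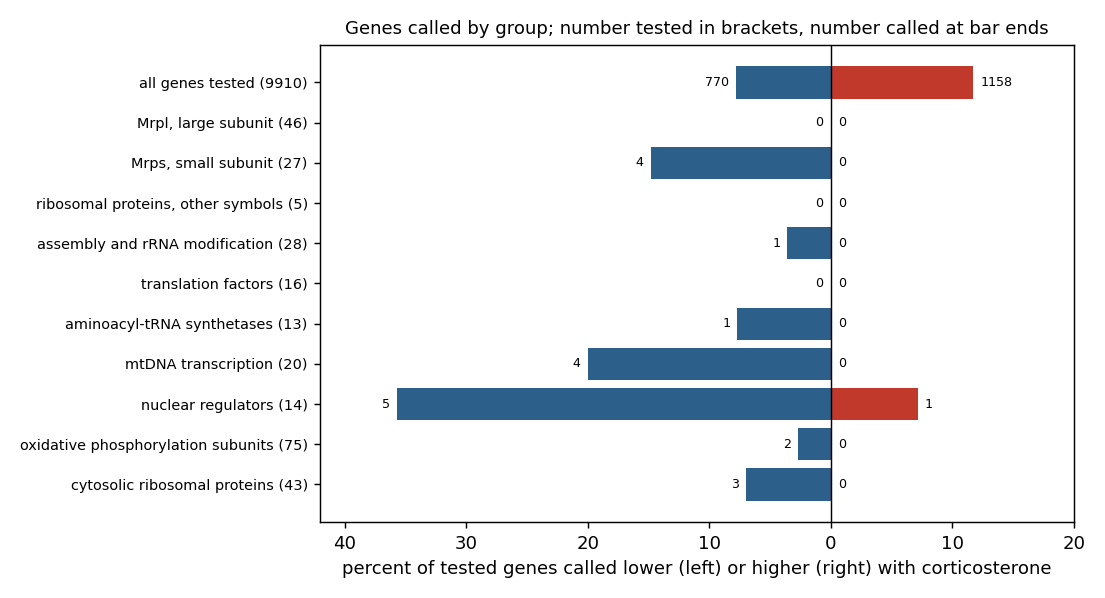
Percent of tested genes called lower (bars to the left) or higher (bars to the right) by limma at an adjusted p under 0.05, per gene group, with the number tested in brackets and the numbers called at the bar ends. Large-subunit genes and translation factors have 0 calls, small-subunit genes 4, and nuclear regulators 5 lower and 1 higher of 14, beside 770 lower and 1158 higher of all 9910 genes. The nuclear regulators include the protease genes Clpp and Lonp1.

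Cytosolic ribosomal proteins and the subunits of oxidative phosphorylation are the gene groups most like the members in role. Of 43 cytosolic ribosomal protein genes tested 3 fell (6.98%) and 0 rose, with a median log2 fold change of −0.038, and of 75 nuclear-encoded oxidative phosphorylation subunits 2 fell (2.67%) and 0 rose, with a median of −0.021, against 7.77% of all genes called lower. Without the couple as a block 0 of either group passed as lower, against 0.36% of all genes. With median centring 15 of the cytosolic and 13 of the oxidative phosphorylation genes did, against 18.3% of all genes. The 3 were Rpl39, Rpl21 and Rpl7l1 (−0.72, −0.18 and −0.21), and the 2 were Ndufs4 and Ndufab1 (−0.47 and −0.19). Both groups were taken by symbol pattern, so a gene such as Rpl7l1 enters by its name. The Rpl39 probe set had 824 ± 194 with vehicle and 492 ± 140 with corticosterone (SD, n = 3 arrays). That of Rpl21 was far brighter, at 15554 ± 1465 and 13696 ± 1370. The difference between these groups and the members was not tested.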

How the data were processed

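RNA of 6 samples was hybridised to 1-colour Affymetrix arrays, 1 array each, from 3 µg of total RNA primed with oligo(dT), per the labels' protocols. Each probe set has a deposited intensity (linear MAS5 signal, made by the authors), per the submitters' processing notes. The mean without the outer tails was 500.2 on every array, so each was scaled to one mean. Of 31099 probe sets 57 controls were left out, 20826 have 1 gene symbol, 436 several and 9780 none. Signals became log2(signal + 28.6), the 25th percentile, and a fold change on this scale understates that of dim probe sets. A filter removed the dimmest 40% by mean log2 signal (18625 remain). Background is the 95th percentile of 27 unspiked bacterial controls. limma 3.58.1 in R 4.3.3 (lmFit, eBayes with intensity trend) was fitted to all 6 arrays with treatment and couple as terms, two-sided, and Benjamini-Hochberg adjustment ran over all 18625 probe sets. The fit was tested on simulated data with changes larger than that of any member, so the test does not cover changes of the members' size. The probe set with the highest mean stands for a gene.

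The series text pairs the samples, and deviations from group means correlated by 0.57, 0.52 and 0.35 within couples. Named were all members that passed, the 3 lowest and 3 highest log2 fold changes among the others, the 3 brightest and 3 dimmest probe sets, genes whose probe sets differed in the call and the Mrps18 paralogs, and in the other lists all that passed and 8 genes chosen by role. Outside this rule Mrpl3, Mrpl4, Mrpl28, Mrpl43, Mrpl52, Mrpl57 and Mrps28 were chosen after their values were seen. So were Clpp, Lonp1 and Yy1, the progenitor markers Slc1a3, Nes, Vim, Fabp7 and Sox2, and the oligodendrocyte and astrocyte markers. All 73 members were found in the RefSeq gene table of GRCr8 with the same symbol. The members and lists were chosen with earlier results of these data known. Alternatives were the model without the couple, pseudocounts at the 10th and 50th percentile, no filter or one at 60%, quantile normalization, median centring, no trend, each couple left out, and the dimmest probe set per gene, and, added after seeing the data, the subunit by structure.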

Additional observations from a re-analysis of the deposited data

How the results depend on the processing

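Without the couple as a replicate block 0 members, 0 small-subunit genes, 0 genes of the other lists (higher or lower), 0 cytosolic ribosomal protein and 0 oxidative phosphorylation genes passed. Of all genes 3.00% did. Median centring gave 18 members lower (10 large-subunit, 8 small-subunit), medians of −0.18 for all members (−0.181), for the large (−0.182) and the small subunit (−0.178), 20 lower and 0 higher in the other lists, and 15 cytosolic and 13 oxidative phosphorylation genes lower. Without the intensity trend 1 member (small-subunit), 4 genes of the other lists, 1 cytosolic and 0 oxidative phosphorylation genes were lower. Without the filter on low signals 6 genes of the other lists were lower and 0 higher, with 1 cytosolic and 0 oxidative phosphorylation genes lower. Quantile normalization gave 1 oxidative phosphorylation gene lower and 1 higher, and the dimmest probe set per gene 0 of the other lists higher. Of all genes 18.3% were lower with median centring, 1.78% without the trend, 2.88% without the filter and 7.59% with quantile normalization. With 1 couple left out, 1 to 5 members passed as lower, 1 of them shared with the 4 without couple 1, 1 without couple 2 and 3 without couple 3. Of all genes 3.95%, 2.69% and 6.85% were lower without couples 1, 2 and 3. Over these 3 fits 0 to 1 large-subunit and 1 to 4 small-subunit genes were lower. The medians ran from −0.089 to −0.051 for all members, −0.082 to −0.047 for the large and −0.10 to −0.054 for the small subunit. In the other lists 4 to 10 were lower and 0 to 1 higher, and 1 to 2 cytosolic and 0 to 1 oxidative phosphorylation genes were lower. Values near 0 changed sign: Mrpl17 to −0.10 with median centring and −0.045 without couple 1 (up to 0.029 without another), Dap3 to 0.0039 without couple 1 (down to −0.12 without another), and Tufm to 0.015 with quantile normalization, 0.031 without couple 2 (down to −0.050 without another) and 0.010 with its dimmest probe set. With the dimmest probe set Mrps2 turned to 0.37, Mrps15 to −0.087 and Nrf1 to 0.15. The cause was not tested. Other pseudocounts and a stricter filter kept the same 4 members, the dimmest probe set per gene kept 3 of them, and the stricter filter tested fewer genes. Signals of all members lay well above background.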
